A study of Homo sapiens with 4 samples.

Results

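Interferon-stimulated genes are the genes that cells switch on when interferon binds its receptors. The 41 genes described here were listed by name, and every probe set annotated to exactly 1 gene symbol that equals a listed name was kept. That gave 68 probe sets for 40 genes, out of 54613 probe sets and 19775 genes on the array, and 1 listed gene was not analysed here. RNA came from CaSki, a human papillomavirus-positive cervical carcinoma line, grown in DMEM with penicillin and streptomycin, for which the labels list the serum content as 0%. The cells carried lentiviral ZNF750 or, as the control, lentiviral GFP, with 2 arrays per group. ZNF750 is a zinc finger protein that promotes terminal differentiation of the epidermis, and the study asked which genes it regulates in squamous carcinoma cells. The labels do not say whether the cells were clones or pools, how long after transduction they were taken, or how the duplicate cultures were made, so p-values measure the spread between these arrays. No interferon was named among the treatments of either group.

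Type I and type III interferons act through Janus kinases on STAT proteins, which join IRF9 in a complex that binds the interferon-stimulated response element in gene promoters. The genes behind these promoters include sensors of viral RNA, the transcription factors of the pathway itself, and effectors that block entry, translation, replication or release of viruses. In epithelial cells a low level of many of them is kept up without infection, and other members of the interferon regulatory factor family can drive some of them directly.

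The introduced gene was not visible on its own probe set. The ZNF750 probe set 219995_s_at read 2.23 and 2.29 on the ZNF750-labelled arrays, against 2.13 and 2.37 on the GFP arrays, a difference of 0.00 ± 0.11 log2 units (limma adjusted p = 0.992). It lay at percentile 0.452 of all probe set means. A probe set outside an introduced coding sequence would not check the labels, and the position of this one was not examined. Whether the introduced gene was expressed was therefore not tested. Below, "ZNF750 arrays" means the arrays so labelled. For ACTB, the 3′ control probe set exceeded the 5′ one, a gap that widens with RNA degradation, by 3.76 and 3.35 log2 units on the ZNF750 arrays and 3.03 and 2.81 on the GFP arrays. The 3′ probe set of the spiked-in bioB transcript, which tracks hybridisation, read 9.17 and 9.35 on the ZNF750 arrays and 8.85 and 8.87 on the GFP arrays. The bioC, bioD and cre spikes were also higher on the ZNF750 arrays, by 0.38, 0.35 and 0.19, and the GAPDH 3′ to 5′ gap was wider by 0.20. The part of these shifts in the results was not tested. All 8 measured epithelial markers lay above the median of all probe set means, the median level below. Of the 9 measured leukocyte markers 2 lay above it, and their summed level was 43.7 and 43.9 on the ZNF750 arrays, against 42.4 and 43.1 on the GFP arrays. PTPRC, the pan-leukocyte marker, read 3.94 and 4.06 on the ZNF750 arrays and 3.90 and 3.91 on the GFP arrays, and 0 leukocyte markers were called in either direction (2 were higher and 0 lower at an unadjusted limma p under 0.05). Of the 8 epithelial markers 4 rose and 1 fell, where 7.79% of all genes were higher and 10.2% lower. The basal keratin KRT14 was higher by 1.10 ± 0.03. Summed plasmacytoid dendritic cell markers were 22.7 and 23.2 on the ZNF750 arrays, against 22.1 and 22.0 on the GFP arrays (4 of 4 above 0 in difference, 0 called and 1 higher at an unadjusted limma p under 0.05). Summed fibroblast markers were 30.8 and 31.1 on the ZNF750 arrays, against 29.7 and 30.1 on the GFP arrays (5 of 6 above 0, 0 called and 1 higher unadjusted). Summed endothelial markers were 18.0 and 18.2 on the ZNF750 arrays, against 17.9 and 18.5 on the GFP arrays (2 of 4 above 0, 0 called). Over all genes 57.4% of differences were above 0. At an unadjusted limma p under 0.05, 3162 of all 19775 genes were higher and 3129 lower. Above the median level lay 3 of 4 plasmacytoid dendritic cell, 2 of 6 fibroblast and 2 of 4 endothelial markers. The part of these shifts in the results was not tested either. In bulk RNA, more cells that express a gene and more RNA per cell cannot be told apart.

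Interferon-stimulated genes were more often higher than lower on the ZNF750 arrays, by modest amounts. Of the 68 probe sets, 14 rose, from 12 genes, and 1 fell, in a limma fit over all probe sets (Benjamini-Hochberg adjusted p under 0.05). This is 20.6% higher and 1.47% lower, where 4.3% of all probe sets were higher and 7.19% were lower. The genes that rose were SAMD9, IFI6, IFIT2, IFIH1, IFITM1, SAMD9L, ISG15, IRF9, IFIT3, USP18, ISG20 and RIGI, and the gene that fell was EPSTI1. The median difference, ZNF750 minus GFP, was 0.24 log2 units over the 68 probe sets and 0.03 over all probe sets. A positive difference was found for 55 of the 68, or 80.9%, and for 55.5% of all probe sets. The median level of the 68 probe sets was 6.31 and 6.33 on the ZNF750 arrays, against 6.01 and 6.09 on the GFP arrays, where the median of all probe sets was 5.49 and 5.51 against 5.45 and 5.47.

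The counts depended on having all 4 arrays, while the median did not change sign. Without GFP replicate 1 or GFP replicate 2 the number of interferon-stimulated probe sets that rose was 0 in both cases, when 0.0183% and 0.0146% of all probe sets passed as higher. Without ZNF750 replicate 1 it was 4, beside 0.489% of all probe sets, and without ZNF750 replicate 2 it was 3, beside 0.432%. The median over the 68 probe sets lay between 0.20 and 0.26 in these 4 fits. Without limma's intensity trend 5 rose (2 of SAMD9, and 1 each of IFI6, ISG15 and IFIT2), beside 0.952% of all probe sets, and 0 fell. Centring each array on its brighter probe sets gave 22 that rose and 1 that fell, and turned the split over all probe sets to 7.65% higher and 6.57% lower.

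With 1 probe set per gene, the one with the highest mean, 15 of the 40 genes rose and 1 fell, where 7.79% of all 19775 genes were higher and 10.2% lower. The median was 0.27 over the 40 genes and 0.04 over all genes. This fit added DDX60 (adjusted p = 0.0386), OAS1 (adjusted p = 0.0411) and IFI27 (adjusted p = 0.0359), which had missed the threshold over all probe sets. With GFP replicate 1 or 2 left out, 1 gene rose in place of 15, beside 0.298% and 0.389% of all genes. Without ZNF750 replicate 1, 7 rose, beside 3% of all genes, and without ZNF750 replicate 2, 12 rose, beside 3.55%.

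**Figure D1:**
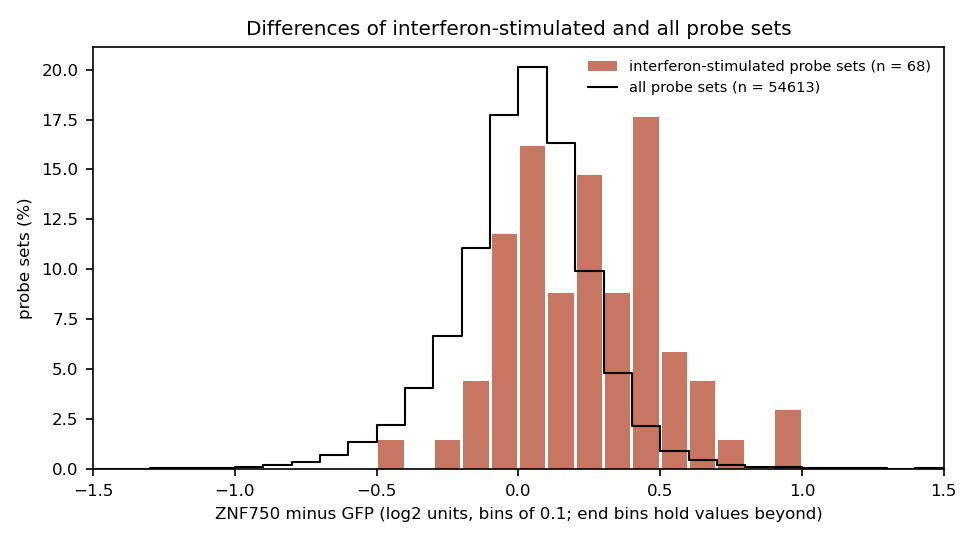
Share of probe sets (vertical axis, percent) by their difference, ZNF750 minus GFP in log2 units (horizontal axis, bins of 0.1). Bars show the 68 interferon-stimulated probe sets and the line all 54613, and the bars are shifted to the right of the line, with medians of 0.24 and 0.03. The end bins hold all values beyond them.

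Probe set brightness mattered to what could be called. Of the 68 probe sets, 42 lay above the median of all probe set means (log2 5.47), and all 15 calls were among them. Above that level 33.3% of the interferon-stimulated probe sets rose, against 6.7% of all probe sets, and 2.38% fell, against 13.6%. At or below it 0 of 26 rose and 0 fell, where 1.9% of all such dim probe sets rose and 0.824% fell. The 0 of 26 is thus close to the share over all dim probe sets. At an unadjusted limma p under 0.05, 9 of the 26 were higher and 0 lower. At that threshold 2736 of all 27307 dim probe sets were higher and 953 lower. The median difference of the 26 was 0.21, against 0.06 over all dim probe sets. RMA compresses dim signals, so differences there can be understated.

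Both ZNF750 arrays lay above both GFP arrays for 43 of the 68 probe sets, or 63.2%, and for 29.9% of all probe sets. Both lay below for 3, or 4.41%, against 24.3% of all probe sets. These 3 were the pair of EPSTI1 probe sets and 1 of IRF1. On the remaining 22 the groups overlapped.

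Most of the genes with a promoter window held a sequence like the interferon-stimulated response element. An element-like match was taken as GAAA, any 2 bases and GAAA or, for the other strand, TTTC, any 2 bases and TTTC, with overlapping matches counted, in RefSeq windows of 300 bases (250 before and 50 after the annotated start, GRCh38.p14). Windows were held for 32 of the 40 genes, and 23 of these, or 71.9%, had a match in at least 1 window, against 4.38% of all 27305 genes with a window. Among genes that rose, 7 of 10 with a window had a match, and among genes with no called probe set 15 of 21 did, so the match was about as frequent in both. RIGI, IRF9 and SAMD9L rose and had no match with these letters in their windows. A motif of the form TTCNNNGAA, as bound by STAT dimers and reading the same on both strands, was found in 11 of the 32, or 34.4%, and in 9.38% of all genes. It was found in 2 of 10 genes that rose, in 8 of 21 with no called probe set and in EPSTI1, which fell. A match is a description of the letters and shows no binding.

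The 160 bases before the start are shown for 8 genes that share a match and differ in response, with the matches in capitals, each read 5′ to 3′ on the gene's strand. SAMD9, IFI6, ISG15 and IFIH1 rose, EPSTI1 fell, and BST2, IFIT1 and IFIT5 were measured above the median level and not called.
SAMD9, chr7:93117980-93118139, minus strand: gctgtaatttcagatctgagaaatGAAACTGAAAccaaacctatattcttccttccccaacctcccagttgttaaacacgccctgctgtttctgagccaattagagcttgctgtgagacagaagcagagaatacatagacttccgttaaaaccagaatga
IFI6, chr1:27672193-27672352, minus strand: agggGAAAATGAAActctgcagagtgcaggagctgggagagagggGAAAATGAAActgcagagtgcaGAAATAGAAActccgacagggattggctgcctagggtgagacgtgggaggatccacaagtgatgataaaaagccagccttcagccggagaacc
ISG15, chr1:1013337-1013496, plus strand: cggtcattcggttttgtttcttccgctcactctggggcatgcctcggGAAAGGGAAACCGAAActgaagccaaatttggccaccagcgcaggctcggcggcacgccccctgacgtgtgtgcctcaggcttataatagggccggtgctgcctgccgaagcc
IFIH1, chr2:162318685-162318844, minus strand: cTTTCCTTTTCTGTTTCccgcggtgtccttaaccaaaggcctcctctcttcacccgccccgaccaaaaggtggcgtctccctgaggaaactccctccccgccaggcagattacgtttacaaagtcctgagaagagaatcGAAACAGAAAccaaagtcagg
EPSTI1, chr13:42992242-42992401, minus strand: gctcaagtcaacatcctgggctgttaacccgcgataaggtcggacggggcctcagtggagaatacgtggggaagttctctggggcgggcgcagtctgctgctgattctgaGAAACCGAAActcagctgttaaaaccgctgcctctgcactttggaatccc
BST2, chr19:17405631-17405790, minus strand: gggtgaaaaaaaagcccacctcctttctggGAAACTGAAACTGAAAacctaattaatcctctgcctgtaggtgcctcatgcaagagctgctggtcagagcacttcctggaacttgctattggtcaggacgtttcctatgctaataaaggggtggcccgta
IFIT1, chr10:89392463-89392622, plus strand: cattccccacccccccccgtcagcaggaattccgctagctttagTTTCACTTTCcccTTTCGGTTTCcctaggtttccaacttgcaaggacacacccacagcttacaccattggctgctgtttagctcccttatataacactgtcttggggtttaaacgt
IFIT5, chr10:89414408-89414567, plus strand: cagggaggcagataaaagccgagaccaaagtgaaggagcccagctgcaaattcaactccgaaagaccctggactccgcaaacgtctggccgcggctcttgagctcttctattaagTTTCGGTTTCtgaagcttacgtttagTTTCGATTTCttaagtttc
SAMD9 held 1 match, 136 bases before the start, and EPSTI1 also held 1, at 50 bases. IFI6 held 3 separate matches, the farthest at 156 bases and the nearest at 93. In ISG15 and in BST2 a pair of matches overlapped into 1 run of capitals. IFIH1 held an overlapping pair on the opposite strand at 159 bases and 1 more match at 21, and IFIT1 and IFIT5 each carried 2 in capitals on the opposite strand. IFIT5 had another that began 4 bases before the start and crossed it, so it is not in capitals. The farthest match began 113 bases before the start in ISG15, which rose, and 130 and 116 bases before it in BST2 and IFIT1, which were not called.

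The largest rise in the family was that of SAMD9, a cytoplasmic antiviral factor that blocks poxvirus replication and restrains cell growth. Probe set 228531_at read 10.35 and 10.24 on the ZNF750 arrays, against 9.35 and 9.25 on the GFP arrays, a 1.99-fold rise (0.99 ± 0.06 log2 units, limma adjusted p = 0.000395; here and below ± is limma's standard error, n = 2 arrays per group). The second probe set, 219691_at, read 8.26 and 8.12 on the ZNF750 arrays and 7.29 and 7.25 on the GFP arrays, 1.9-fold higher (0.92 ± 0.08, adjusted p = 0.00119). Both probe sets thus separated the groups by several times the spread within a group, and their differences lay within error of each other. SAMD9L, the paralog that neighbours SAMD9 on chromosome 7, rose on 1 of 3 probe sets. On 226603_at it read 7.30 and 7.07 on the ZNF750 arrays, against 6.72 and 6.51 on the GFP arrays (0.57 ± 0.12, adjusted p = 0.0211). Its other probe sets were dim and gave -0.01 ± 0.17 and 0.09 ± 0.12.

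**Figure D2:**
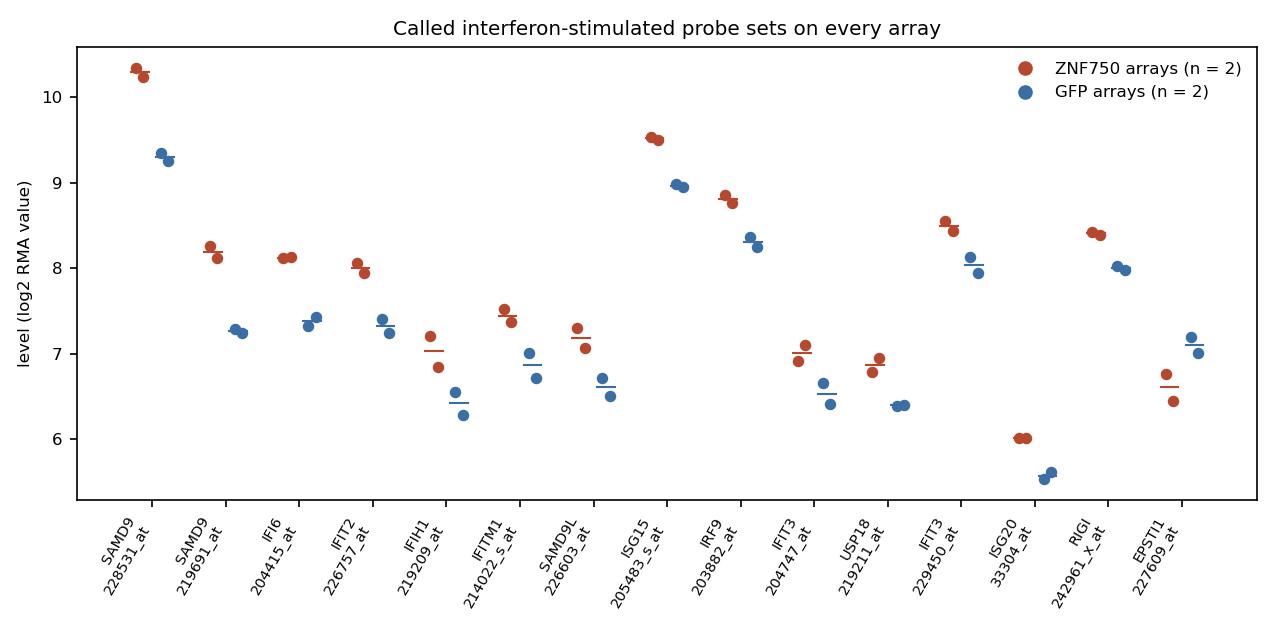
Level (log2 RMA value, vertical axis) of the 15 called probe sets on every array, ordered by difference, with ZNF750 arrays left of GFP arrays and a short line at each group mean (n = 2 arrays per group). The groups do not overlap on any of them, and EPSTI1 alone is lower on the ZNF750 arrays.

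Among the cytoplasmic RNA sensors, IFIH1 and RIGI each rose on 1 of 3 probe sets. IFIH1 encodes MDA5, which binds long double-stranded RNA. On 219209_at it read 7.21 and 6.85 on the ZNF750 arrays and 6.55 and 6.29 on the GFP arrays, 1.53-fold higher (0.61 ± 0.14, adjusted p = 0.0350). The groups did not overlap, but the gap between them was smaller than the spread between the ZNF750 arrays. The dimmer IFIH1 probe sets gave 0.44 ± 0.17 (adjusted p = 0.149) and -0.05 ± 0.12 (adjusted p = 0.847).

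RIGI encodes the sensor of short RNA with a terminal triphosphate. Its 242961_x_at read 8.43 and 8.39 on the ZNF750 arrays, against 8.03 and 7.98 on the GFP arrays (0.41 ± 0.07, adjusted p = 0.0104). Neither other RIGI probe set moved with it: 222793_at gave -0.03 ± 0.12 and 218943_s_at gave -0.12 ± 0.15, with overlapping groups on both. The _x_at suffix marks probes that can bind other transcripts, so the rise of RIGI rests on the least specific of its probe sets. DDX60, a helicase reported to assist these sensors, read 5.34 and 5.15 on the ZNF750 arrays and 4.76 and 4.83 on the GFP arrays (0.45 ± 0.12, adjusted p = 0.0575), which missed the threshold over all probe sets.

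Of the transcription factors with a probe set, IRF9 rose and IRF1 and IRF7 did not pass. IRF9, the DNA-binding subunit that recognises the response element, read 8.86 and 8.77 on the ZNF750 arrays, against 8.37 and 8.25 on the GFP arrays, 1.42-fold higher (0.51 ± 0.07, adjusted p = 0.00597). IRF7, the factor that amplifies interferon alpha production, read 7.56 and 7.38 on the ZNF750 arrays and 7.40 and 7.38 on the GFP arrays (0.08 ± 0.09, adjusted p = 0.630). IRF1, a target of interferon gamma and an activator of epithelial antiviral genes, gave 0.06 ± 0.08 on 202531_at, where it read 7.84 and 7.68 on the ZNF750 arrays and 7.74 and 7.66 on the GFP arrays. Its second probe set, 238725_at, gave -0.27 ± 0.10 (adjusted p = 0.152), with both ZNF750 arrays below both GFP arrays.

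The IFIT family, tetratricopeptide proteins that bind viral RNA and hinder its translation, was split. IFIT2 rose on 226757_at, with 8.07 and 7.94 on the ZNF750 arrays, against 7.41 and 7.25 on the GFP arrays, 1.6-fold higher (0.68 ± 0.09, adjusted p = 0.00476). Its dimmer probe set gave 0.16 ± 0.12. IFIT3, a partner that stabilises IFIT1, rose on both of its probe sets. On 229450_at it read 8.56 and 8.43 on the ZNF750 arrays and 8.14 and 7.95 on the GFP arrays (0.45 ± 0.09, adjusted p = 0.0179). On 204747_at it read 6.92 and 7.10 on the ZNF750 arrays and 6.66 and 6.41 on the GFP arrays (0.47 ± 0.12, adjusted p = 0.0397).

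IFIT5 and IFIT1 lie beside these genes in the same chromosome 10 cluster and did not pass. IFIT5 had a difference of 0.01 ± 0.06 on 203595_s_at, with 9.40 and 9.36 on the ZNF750 arrays and 9.41 and 9.33 on the GFP arrays, and the 95% interval ran from -0.13 to 0.14. Its second probe set gave -0.01 ± 0.07. The interval leaves out the differences measured on the called probe sets of IFIT2 and IFIT3. IFIT1, the member that recognises incompletely methylated RNA caps, read 6.84 and 6.57 on the ZNF750 arrays, against 6.89 and 6.45 on the GFP arrays (0.04 ± 0.16), with an interval from -0.33 to 0.41. Replicates of IFIT1 differed by more than the groups did.

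The ISG15 system rose in part. ISG15, a ubiquitin-like protein that is attached to other proteins and also secreted, read 9.54 and 9.50 on the ZNF750 arrays, against 8.98 and 8.96 on the GFP arrays, 1.47-fold higher (0.55 ± 0.06, adjusted p = 0.00200). USP18, the protease that removes ISG15 and also restrains signalling from the type I receptor, read 6.79 and 6.95 on the ZNF750 arrays and 6.39 and 6.41 on the GFP arrays (0.47 ± 0.10, adjusted p = 0.0212). HERC5, the main ligase for ISG15 in human cells, gave -0.02 ± 0.10, with 7.85 and 7.58 on the ZNF750 arrays and 7.76 and 7.71 on the GFP arrays. HERC6, its neighbour on chromosome 4, gave 0.30 ± 0.11 on its brighter probe set (adjusted p = 0.135), with 7.56 and 7.30 on the ZNF750 arrays and 7.21 and 7.06 on the GFP arrays, and 0.19 ± 0.13 on a dim one.

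Among the membrane proteins 1 of 4 probe sets passed, where 4.3% of all probe sets were higher and 7.19% lower. IFITM1, which acts at the cell surface against virus entry, rose on 214022_s_at, with 7.52 and 7.37 on the ZNF750 arrays, against 7.01 and 6.72 on the GFP arrays, 1.49-fold higher (0.58 ± 0.11, adjusted p = 0.0191). IFITM2 and IFITM3, which act mainly in endosomes, gave 0.05 ± 0.04 (adjusted p = 0.50) and 0.04 ± 0.04 (adjusted p = 0.584). IFITM2 read 11.11 and 11.07 on the ZNF750 arrays and 11.04 and 11.05 on the GFP arrays, and IFITM3 read 11.32 and 11.27 on the ZNF750 arrays and 11.25 and 11.25 on the GFP arrays. The groups of both stood apart by hundredths of a log2 unit. Both of these probe sets end in _x_at, so they may bind other transcripts, and whether their signals overlap was not tested. BST2, or tetherin, which holds budding virions at the surface, read 9.83 and 9.86 on the ZNF750 arrays and 9.83 and 9.88 on the GFP arrays (-0.01 ± 0.05, with an interval from -0.13 to 0.11). Its difference was 0.06 after cyclic loess and 0.04 after centring on brighter probe sets, so the sign differed between scalings.

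Of 6 probe sets of the small IFI proteins 1 passed, where 4.3% of all probe sets were higher and 7.19% lower. All 6 differences were above 0, where 55.5% of all probe sets were. However, IFI44L was at -0.06 after cyclic loess or a second quantile normalization, -0.11 without GFP replicate 2 and -0.07 without ZNF750 replicate 1. IFI6, a small membrane protein that protects cells from flaviviruses and from apoptosis, read 8.12 and 8.13 on the ZNF750 arrays, against 7.33 and 7.44 on the GFP arrays, 1.67-fold higher (0.74 ± 0.08, adjusted p = 0.00203). IFI27, from the same protein family, read 6.56 and 6.29 on the ZNF750 arrays and 5.97 and 6.00 on the GFP arrays (0.44 ± 0.12, adjusted p = 0.0501), just above the threshold. IFI35, a leucine zipper protein, gave 0.14 ± 0.07 (adjusted p = 0.239), with 8.27 and 8.34 on the ZNF750 arrays and 8.17 and 8.16 on the GFP arrays. IFI44 and IFI44L, cytoplasmic proteins with reported antiviral activity, were dim, with 0.33 ± 0.12 and 0.34 ± 0.14 for IFI44 and 0.01 ± 0.13 for IFI44L.

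None of the 15 probe sets of the OAS family, the MX GTPases and GBP1 passed over all probe sets (limma). Over all probe sets 4.3% were higher and 7.19% lower, so the lack of calls is close to these shares. Of the 15 differences 14 were above 0, where 55.5% of all probe sets were. OAS enzymes make oligoadenylates that activate an RNA-degrading nuclease. At an unadjusted limma p under 0.05, 4 of 9 OAS probe sets were higher and 0 lower. At that threshold 6762 of all 54613 probe sets were higher and 7530 lower. OAS1 on 202869_at read 5.45 and 4.90 on the ZNF750 arrays, against 4.48 and 4.55 on the GFP arrays (0.66 ± 0.18, adjusted p = 0.0590). It passed after centring on brighter probe sets (0.71, adjusted p = 0.0197). OAS3 read 7.86 and 7.74 on the ZNF750 arrays and 7.70 and 7.49 on the GFP arrays (0.20 ± 0.09, adjusted p = 0.225). OASL, a relative without that enzyme activity, gave 0.28 ± 0.11 on 210797_s_at, with 5.57 and 5.76 on the ZNF750 arrays and 5.39 and 5.39 on the GFP arrays, and 0.31 ± 0.12 on a dimmer one. OAS2 was dim on each of its 3 probe sets, with differences between 0.08 and 0.45.

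MX1 and MX2 are dynamin-like GTPases that act on incoming viral complexes. MX1 read 7.20 and 7.16 on the ZNF750 arrays, against 7.02 and 6.97 on the GFP arrays (0.18 ± 0.08, adjusted p = 0.204), and MX2 gave 0.23 ± 0.10 (adjusted p = 0.201), with 5.92 and 5.86 on the ZNF750 arrays and 5.63 and 5.69 on the GFP arrays. GBP1, a guanylate-binding GTPase induced above all by interferon gamma, gave 0.27 ± 0.11 on 202270_at (adjusted p = 0.168), where it read 7.02 and 6.95 on the ZNF750 arrays and 6.85 and 6.59 on the GFP arrays. Groups did not overlap for MX1, MX2 or that GBP1 probe set, but none of the 3 passed. The other GBP1 probe sets were dim, and 231577_s_at gave the largest GBP1 difference, 0.42 ± 0.12 (adjusted p = 0.0637).

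ISG20, an RNA exonuclease, rose on 33304_at, with 6.01 and 6.01 on the ZNF750 arrays, against 5.54 and 5.62 on the GFP arrays (0.44 ± 0.10, adjusted p = 0.0338). The second ISG20 probe set gave 0.48 ± 0.14, a similar size, and missed the threshold (adjusted p = 0.0653). RSAD2, or viperin, and its neighbour CMPK2 together provide a nucleotide that stops viral RNA synthesis. All 3 of their probe sets were dim, with differences from -0.12 to 0.10.

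Among the remaining genes EPSTI1 went the other way. EPSTI1, an interferon-responsive gene of epithelial and immune cells, read 6.77 and 6.45 on the ZNF750 arrays, against 7.20 and 7.01 on the GFP arrays, 1.41-fold lower (-0.49 ± 0.13, adjusted p = 0.0487). Its second probe set, with 5.91 and 5.84 on the ZNF750 arrays and 6.01 and 6.01 on the GFP arrays, gave -0.14 ± 0.10 (adjusted p = 0.429), on the same side of 0. The call stood just inside the threshold, and the mean of both probe sets did not pass. The EPSTI1 call was lost with any 1 array left out, as were the calls of most probe sets that rose. Its difference stayed between -0.652 and -0.331 in these fits. PARP9 and PARP14 are ADP-ribosylation proteins that modulate STAT signalling. On its brighter probe set, 223220_s_at, PARP9 read 7.66 and 7.45 on the ZNF750 arrays, against 7.32 and 7.10 on the GFP arrays (0.35 ± 0.11, adjusted p = 0.0878). On 227807_at it gave 0.33 ± 0.09 (adjusted p = 0.0606), and the groups did not overlap on either.

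PARP14 read 7.49 and 7.16 on the ZNF750 arrays and 7.15 and 6.92 on the GFP arrays (0.29 ± 0.13, adjusted p = 0.209), and a dim probe set gave 0.24 ± 0.12. TRIM22, a ubiquitin ligase that restricts several viruses, read 7.29 and 7.16 on the ZNF750 arrays and 7.08 and 6.93 on the GFP arrays (0.22 ± 0.09, adjusted p = 0.199). XAF1, a pro-apoptotic antagonist of XIAP, was dim on all 3 probe sets, with differences from 0.04 to 0.37.

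**Figure D3:**
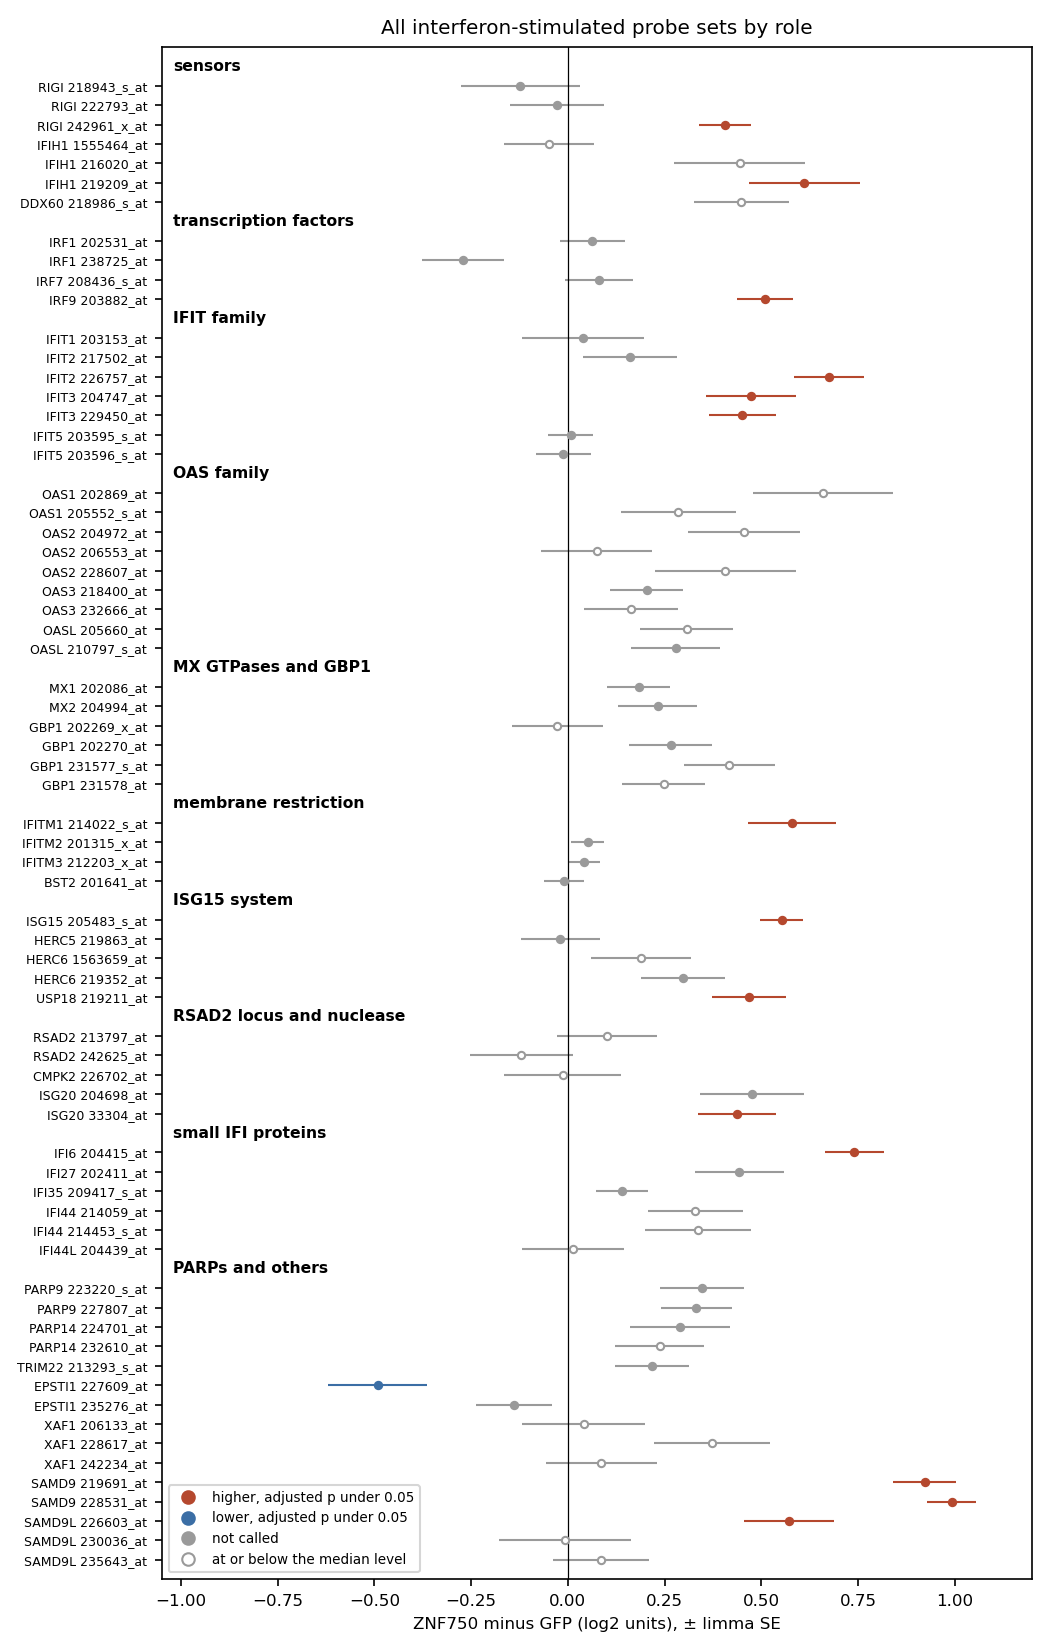
Difference, ZNF750 minus GFP in log2 units (horizontal axis), with limma's standard error for all 68 interferon-stimulated probe sets, grouped by role. Open symbols mark probe sets at or below the median level, and the 14 that rose and the 1 that fell are coloured, all of them filled.

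Probe sets of the same gene did not always move together. Of the 21 genes with several probe sets, 14 had all of them on 1 side of 0. Every probe set passed for 2 genes, SAMD9 and IFIT3, and some but not all passed for 6, EPSTI1, IFIH1, IFIT2, ISG20, RIGI and SAMD9L. The 2 probe sets of ISG20 gave close differences, 0.44 and 0.48, whereas those of RIGI ran between -0.12 and 0.41 and those of IFIH1 between -0.05 and 0.61. For 3 of the 14 that rose (RIGI, IFITM1 and ISG15) the probe set ended in _s_at or _x_at. ISG15 and IFITM1 have no other probe set here, so for them no second reading was available.

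For the upstream parts of the pathway, the values that follow are from the fit with 1 probe set per gene. In that fit 7.79% of all genes were higher and 10.2% lower, with a median of 0.04. At an unadjusted limma p under 0.05, 3162 of all 19775 genes were higher and 3129 lower. Of 8 interferon ligands 0 rose and 0 fell (1 was higher and 0 lower at an unadjusted limma p under 0.05), all of them at or below the median level. IFNK, the interferon kappa of keratinocytes, had the largest difference, with 5.36 and 4.91 on the ZNF750 arrays, against 4.87 and 4.31 on the GFP arrays (0.55 ± 0.22, adjusted p = 0.129), and the gap between the groups was smaller than the spread within either. IFNA2 gave 0.27 ± 0.13 (adjusted p = 0.208).

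Of 9 receptor chains and Janus kinases 1 rose and 1 fell, or 11.1% each way beside 7.79% and 10.2% of all genes, with a median of -0.02. IFNGR1, the ligand-binding chain for interferon gamma, read 10.22 and 10.15 on the ZNF750 arrays, against 9.88 and 9.81 on the GFP arrays (0.34 ± 0.05, adjusted p = 0.00465). IFNAR1, a chain of the type I receptor, read 7.72 and 7.57 on the ZNF750 arrays and 7.95 and 7.91 on the GFP arrays (-0.28 ± 0.08, adjusted p = 0.0480). Of 5 other STAT and interferon regulatory factor genes 2 rose and 0 fell (0 lower at an unadjusted limma p under 0.05). These were IRF5 (0.48 ± 0.08, adjusted p = 0.00706) and IRF2 (0.38 ± 0.09, adjusted p = 0.0270). The 2 are 40% of a short list, beside 7.79% of all genes, and the median of the 5 was 0.28, against 0.04. IRF2 competes with IRF1 for its sites and IRF5 serves Toll-like receptor signalling.

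Sensing adaptors and kinases had 4 of 14 genes higher and 0 lower (1 lower at an unadjusted limma p under 0.05). This is 28.6% higher, where 7.79% of all genes were higher and 10.2% lower. The list median was 0.08, against 0.04 over all genes. AIM2, a sensor of cytoplasmic DNA that assembles the inflammasome, read 8.30 and 8.15 on the ZNF750 arrays, against 7.65 and 7.31 on the GFP arrays (0.74 ± 0.12, adjusted p = 0.00538). IFI16, a related DNA sensor, rose by 0.48 ± 0.08 (adjusted p = 0.00519), STING1, the adaptor of DNA sensing, by 0.39 ± 0.08 (adjusted p = 0.0119) and MYD88, the Toll-like receptor adaptor, by 0.26 ± 0.06 (adjusted p = 0.0169). IFI16 was read by an _x_at probe set. Of 8 negative regulators 1 rose, the phosphatase gene PTPN6 (0.33 ± 0.08, adjusted p = 0.0275), and 0 fell (1 lower at an unadjusted limma p under 0.05), PTPN2 giving -0.24 ± 0.09 (adjusted p = 0.0965). The 1 of 8 is 12.5%, beside 7.79% of all genes, and the list median was -0.04.

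Other interferon-stimulated genes outside the list rose in 10 of 38 cases and fell in 2, CD274 and TRIM14 (the second named after its values were seen), with a median of 0.12, where 7.79% of all genes were higher, 10.2% lower and the median was 0.04. APOL6, an apolipoprotein L family member (0.42 ± 0.08, adjusted p = 0.00976), DTX3L, the ubiquitin ligase that pairs with PARP9 (0.38 ± 0.06, adjusted p = 0.00418), and SP100, a nuclear body protein (0.38 ± 0.07, adjusted p = 0.0106), rose. CD274, the immune checkpoint ligand PD-L1, fell: it read 8.21 and 8.10 on the ZNF750 arrays, against 8.78 and 8.66 on the GFP arrays (-0.56 ± 0.07, adjusted p = 0.00280). MHC class I presentation was divided, with 3 of 14 genes higher and 3 lower and a median of 0.03. PSMB10 (-0.34 ± 0.07, adjusted p = 0.0106) and PSMB9 (-0.23 ± 0.06, adjusted p = 0.0397), subunits of the immunoproteasome, and TAP2, a peptide transporter chain (-0.29 ± 0.06, adjusted p = 0.0119), fell. HLA-E, a class I heavy chain, rose by 0.18 ± 0.04 (adjusted p = 0.0194) on an _x_at probe set.

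**Figure D4:**
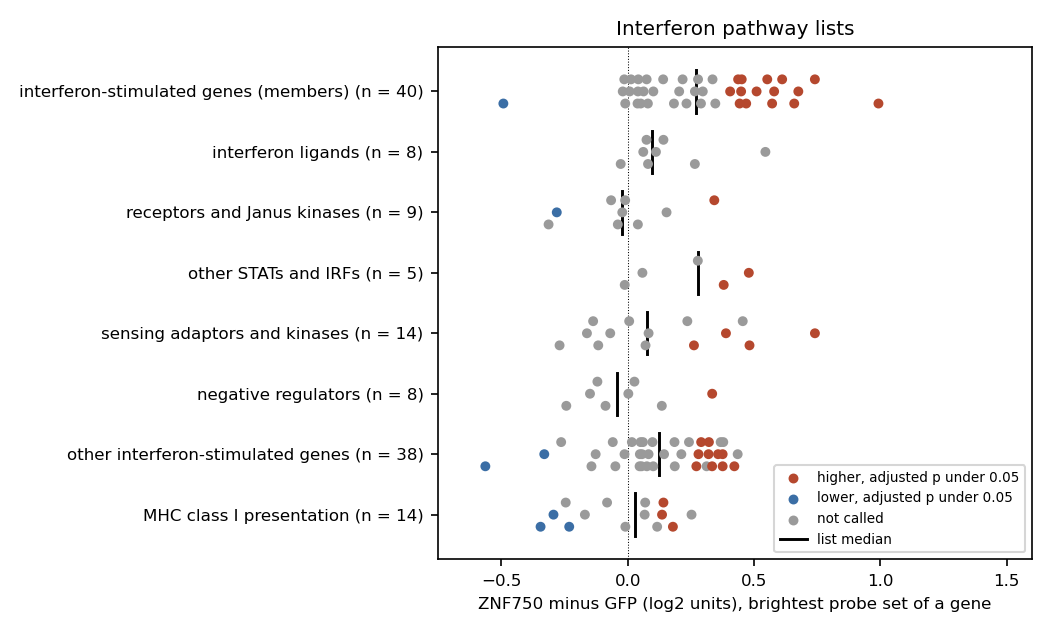
Difference, ZNF750 minus GFP in log2 units (horizontal axis), of each measured gene of the interferon-stimulated genes and 7 other lists of the pathway, with 1 probe set per gene and a vertical line at each list's median. The medians are 0.27 for the interferon-stimulated genes, 0.12 for other such genes outside the list and between -0.04 and 0.28 for the remaining lists.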

How the data were processed

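Total RNA from 4 CaSki cultures was hybridised to Affymetrix HG-U133 Plus 2.0 arrays, 1 sample per array. The authors deposited log2 values for each probe set and array, made with RMA per the submitters' processing notes; the RMA version was not given in the sources used here. No detection calls or scanner files were used, so whether a dim probe set lay above background is not known, and the number of arrays limits the precision.

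Arrays were grouped by their titles. After 62 control probe sets were left out, limma 3.58.1 in R 4.3.3 (lmFit, eBayes with an intensity trend, 2 residual degrees of freedom) was fitted to 54613 probe sets, and again to 19775 genes with the probe set of highest mean. P-values were Benjamini-Hochberg adjusted over each whole table and called under 0.05. The code was checked on simulated data. An exact permutation test of these groups cannot go below 0.333 (two-sided) and was not used, and no test was made of the list as a whole.

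Symbols came from the platform annotation; 41091 probe sets had 1 symbol, 1801 several and 11721 none. All 68 used here matched RefSeq by Entrez identifier and symbol, and 2 that name a listed gene beside another were left out. No genome was used; promoter sequences and their coordinates are RefSeq's.

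The genes and lists were chosen with earlier results of these data known. Values on every array are given for each called probe set of the family and for the brightest of each gene above the median level. For the other lists up to 4 genes that passed with the largest differences are named, or the largest 2 of all where fewer than 2 passed. A few listed genes are not reported here. Alternatives covered the variance prior, dim probe sets, normalization, centring, the replicate block, the probe sets used, the threshold and leaving out each array.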

Additional observations from a re-analysis of the deposited data

How the results depend on the processing

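The number of probe sets that rose was 14 in the reported fit. It was 5 without the intensity trend, 22 after centring on brighter probe sets and 6 at an adjusted p under 0.01, and ranged from 0 to 4 with 1 array left out. It lay between 11 and 17 in the other alternatives, where 3.3% to 9.07% of the probe sets tested were higher. Without the trend 0.952% of all probe sets were higher, and after centring 7.65%. At a limma adjusted p under 0.01, 1.29% were higher and 2.7% lower. The 1 that fell became 0 without the trend, without _s_at, _x_at and _a_at probe sets, at an adjusted p under 0.01 and with any 1 array left out. The median of 0.24 was 0.30 after centring and ranged from 0.20 to 0.26 with 1 array left out. By gene, the 15 that rose became 8 without the trend and ranged from 1 to 12 with 1 array left out. The 1 that fell became 0 without the trend and with the mean of probe sets, and ranged from 0 to 1 with 1 array left out. The gene median of 0.27 was 0.23 with the mean of probe sets and ranged from 0.19 to 0.30 with 1 array left out. Without the trend 3.61% of all genes were higher and 3.95% lower. The cause of these changes was not tested, beyond the fewer arrays. Fitting the replicate number as a block gave 13 probe sets that rose and 1 that fell, and 16 and 1 genes. Under the block 3.67% of all probe sets were higher and 6.94% lower, and 8.48% and 11.6% of all genes. The labels give the replicate numbers no shared source. The deviations of same-numbered arrays correlated at 0.134 across all 54613 probe sets and at 0.315 across the 68 of the family. With only 2 pairs the numbers were not taken as pairing. Under the block IFIT3 204747_at (adjusted p = 0.0887) and ISG20 33304_at (0.0516) lost their calls and PARP9 223220_s_at (0.0383) gained one.

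Of 840 values of single probe sets under the alternatives, 66 lost a call, 19 gained one, and 12 changed sign by more than their standard error with no call in either fit. The other 743 kept their side of the threshold, with at most a smaller change of sign. BST2 changed to 0.0591 after cyclic loess and 0.0434 after centring. With 1 array left out, some probe sets changed sign by more than their standard error. Their differences ranged from -0.337 to 0.0919 for 218943_s_at and -0.158 to 0.10 for 222793_at of RIGI. The range was -0.00931 to 0.169 for IRF7, -0.181 to 0.259 for IFIT1, -0.0703 to 0.22 for OAS2 and -0.158 to 0.119 for HERC5. It was -0.267 to 0.0268 for RSAD2, -0.232 to 0.205 for CMPK2, -0.158 to 0.239 for XAF1 and -0.245 to 0.23 for SAMD9L. PARP9 passed on both probe sets after cyclic loess (adjusted p = 0.0352 and 0.0368, limma).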
